A study of Mus musculus with 6 samples.

Results

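The genes described here are the zinc-dependent histone deacetylases (HDACs), the sirtuins and the SWI/SNF family of chromatin remodelers in ribosome-bound RNA of S100a10-expressing cells from mouse cortex. They were chosen by symbol, taking Hdac or Sirt followed by a number, every symbol that begins with Smarc, and Arid1a, Arid1b, Arid2, Actl6a, Actl6b, Pbrm1, Brd7 and Brd9. This gave 39 of the 18193 genes that the platform annotation names with a single symbol, on 76 probe sets, and each gene is described by its brightest probe set unless another is named. The translating ribosome affinity purification (TRAP) mice carried an S100a10 bacterial artificial chromosome (line ES691) that tags ribosomes in S100a10-expressing cells, were constitutive p11 knockouts in both groups, and had been backcrossed from FVB to C57BL/6 for 3 to 5 generations. For 15 to 18 days the FLX group drank 0.167 mg/ml fluoxetine dissolved with 1% saccharin, while the VEH group drank the saccharin solution without the drug. Cortical ribosomes were captured in 3 independent replicates per group, 1 array each. Age and the number of mice per array were not stated in the labels. According to the submitters the transgene is active in some cells other than neurons, so the RNA is not from pyramidal neurons alone. Values of a gene are listed below in the order of replicates 1, 2 and 3.

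HDACs remove acetyl groups from lysines of histones and other proteins. Class I enzymes act mostly in nuclear corepressor complexes, class IIa enzymes shuttle between nucleus and cytoplasm and bind MEF2 transcription factors, and sirtuins use NAD as a cosubstrate. SWI/SNF complexes use ATP to slide or evict nucleosomes, and neurons exchange some of their subunits for neuronal paralogs such as Actl6b in place of Actl6a. Fluoxetine is a selective serotonin reuptake inhibitor, and p11, the product of S100a10, is a protein that has been studied in the response to such drugs. The p11 partner formerly named Smarca3 is now Hltf and is not among these genes.

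Across the 6 arrays, the median normalized intensity was 38.5 to 41.9 over all probe sets. Over the tested probe sets the median log2 value was 8.59 in VEH replicate 3 and 8.72 to 8.82 in the other arrays. Both arrays of replicate 3 differed from the rest: their correlation with arrays of replicates 1 and 2 was 0.867 to 0.916, while it was 0.973 between them and 0.987 to 0.995 among the remaining 4 (Pearson, log2 values). Summed over the brightest probe set of each listed gene that had one, oligodendrocyte markers (5 of 6 tested) stood at 20884 to 24320.0 in replicates 1 and 2 against 64474 to 65709 in replicate 3. Leptomeningeal and fibroblast markers (6 of 6 tested) stood at 11912 to 23612 in replicates 1 and 2 against 1046 to 2031 in replicate 3, and neuronal markers (7 of 7 tested) at 87178 to 96641 in replicates 1 and 2 against 93818 to 99591 in replicate 3. Astrocyte markers (5 of 5 tested) summed to 14580.0 to 23985 in replicates 1 and 2 against 6268 to 8483 in replicate 3, and microglial markers (5 of 5 tested) to 2461 to 3430.4 in replicates 1 and 2 against 1832 to 2303 in replicate 3. Pericyte and smooth muscle markers (4 of 5 tested) summed to 4105 to 8323 in replicates 1 and 2 against 1977 to 2042 in replicate 3, and endothelial markers (2 of 5 tested) to 251 to 387 in replicates 1 and 2 against 106 to 115 in replicate 3. A sum follows its brightest genes, and not every marker of a list went with it. Of the astrocyte markers 2 were higher in replicate 3 in both groups, Gfap by 2.06 (FLX) and 2.06 (VEH) on the log2 scale and Aldh1l1 by 0.48 (FLX) and 0.78 (VEH), and 2 were lower, among them Gja1, the brightest of the list, at -1.91 (FLX) and -2.40 (VEH). Of the oligodendrocyte markers 4 were higher and 1 lower, Mag at -0.87 (FLX) and -1.37 (VEH). Of the tested pericyte and smooth muscle markers 3 were lower and 1 higher, Rgs5 at 1.96 (FLX) and 1.55 (VEH). Of the microglial markers 4 were lower and 1 higher, and of the neuronal markers 3 were higher and 2 lower. All 6 leptomeningeal and both tested endothelial markers were lower. Some markers also differed between FLX and VEH. The pericyte and smooth muscle sums of replicates 1 and 2 were 4105 and 5009 (FLX) against 8323 and 5907 (VEH). The log2 difference FLX minus VEH was positive in 0 of these 4 markers and 3 of 5 astrocyte markers. Over replicates 1, 2 and 3 it was 1.77, 1.22 and 1.498 for Gfap and 0.83, 0.59 and 1.945 for Aqp4. Gja1 stood at -0.043. No marker was called in the fits below, and their part in the 39 genes was not tested. Pecam1, Flt1 and Myh11 were under 50 in every array, and no marker had a value of 0. For the targeted gene, S100a10, 1 probe set (x_at, a type that can match several transcripts) read 349 to 2222 with fluoxetine and 643 to 3111 with vehicle, and both others stayed under 50 in every array. The labels do not say whether these probes fall inside the deletion, and no check of the genotype follows from them. Fewer cells of a type and less RNA per cell cannot be told apart in such samples.

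None of the 39 genes was called as different between FLX and VEH, which does not show that they were equal. In limma's fit over all 22200 tested probe sets 0 of 39 members passed an adjusted p of 0.05 (3 arrays per group), and every member had an adjusted p of 0.9998. The share of all tested probe sets that passed was 0%. At an unadjusted p under 0.05 limma gave 0 members, against 83 probe sets (0.374%). With the replicate number as a block limma again called 0 members and 0 probe sets, with 2 members and 1764 probe sets (7.95%) at an unadjusted p under 0.05. Those members were Hdac9 and Smarcal1 (5.13%, against 7.6% of the 12214 genes). Without the block, the shift of replicate 3 in both groups counts as spread. The median SE over members was 0.31 without the block and 0.17 with it. All 39 genes passed the filter on low values, a mean of 50 or more in at least 1 group, and 37 were at 50 or more in every array. Hdac7 (48.3 in VEH replicate 3) and Hdac8 (48.6 in VEH replicate 2) were not.

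Log2 differences, given throughout as FLX minus VEH, ran from -0.38 for Smarcb1 to 0.42 for Smarcal1. Their median was 0.045, next to 0.047 over the 12214 genes tested, and 24 of 39 were positive (61.5%, against 58.0% of genes). The 95% interval of each difference held 0 for all 39 members, with half-widths of 0.46 to 1.85 and a median of 0.76. For 23 members the interval lay within 1 on the log2 scale in either direction, so a change beyond 2-fold lies outside it. For the other 16 the interval reached beyond that size. With the replicate number as a block, all 39 intervals lay within 1 either way, from -0.92 for Smarcb1 at the lowest to 0.80 for Smarcal1 at the highest, and those of 2 members, Hdac9 and Smarcal1, did not hold 0. Leaving out VEH replicate 3 moved the members' median to 0.23, and leaving out FLX replicate 3 moved it to -0.064. The medians over all genes with these arrays left out are not given here.

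**Figure D1:**
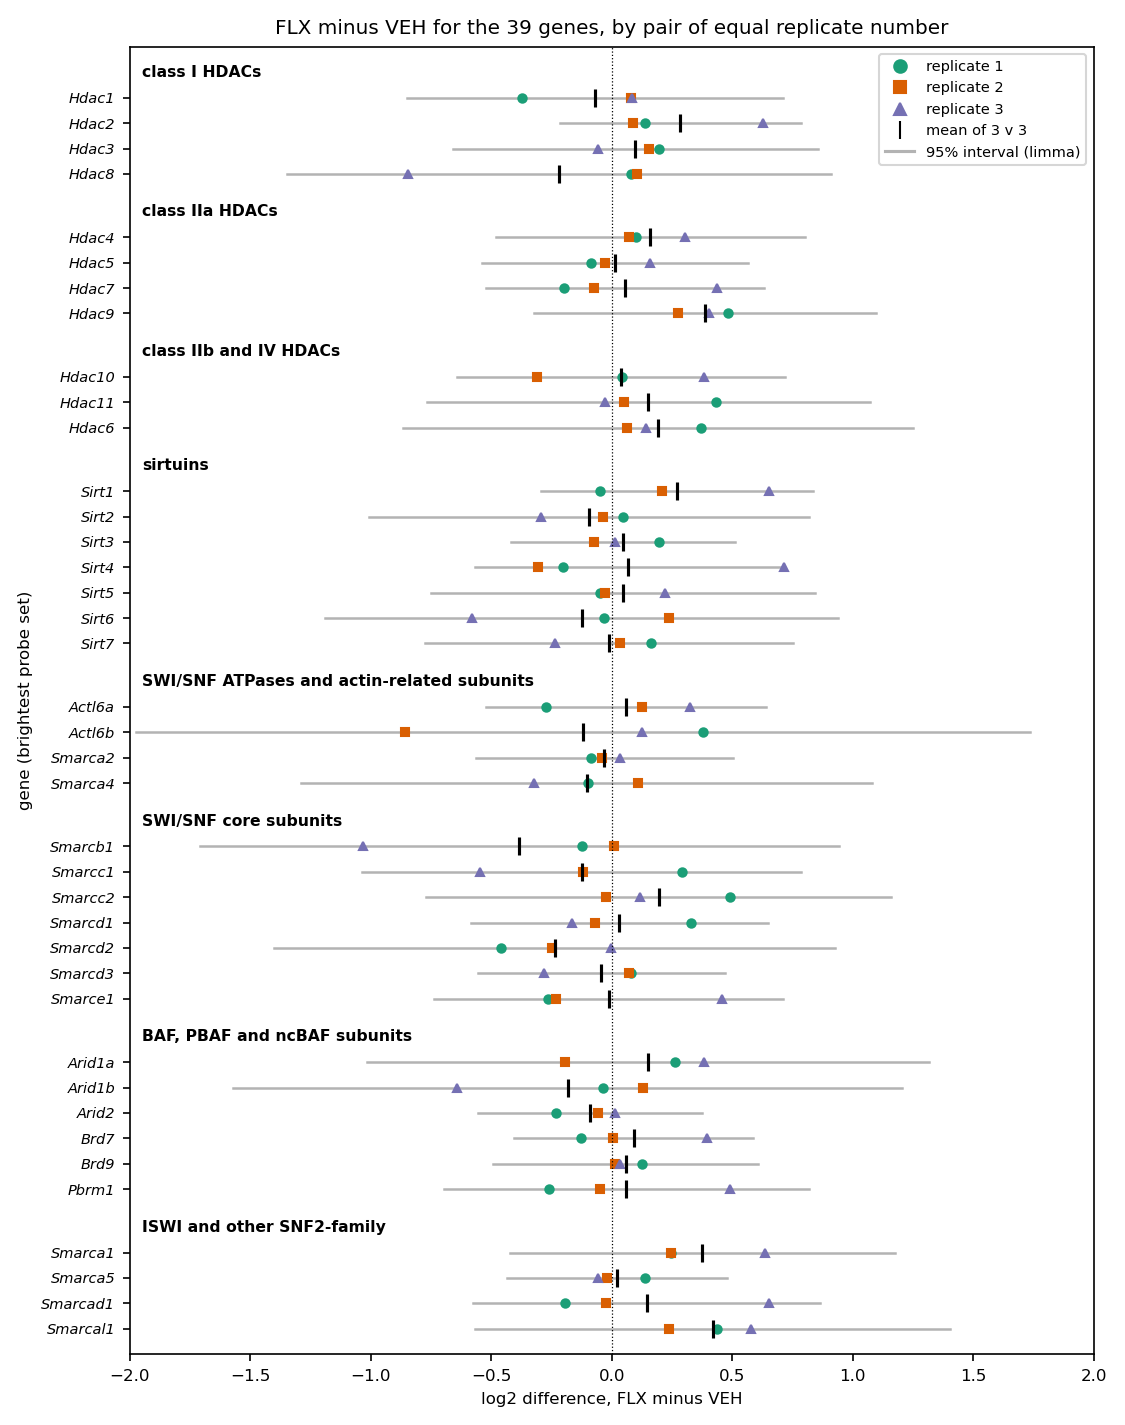
Log2 difference FLX minus VEH (x axis) for each of the 39 genes (y axis), grouped by role. Coloured points are the 3 pairs of equal replicate number, black ticks the difference of the group means and grey lines limma's 95% interval, which crosses 0 in 39 of 39 genes.

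Class I deacetylases, mostly catalytic subunits of nuclear corepressors, held the 1 member whose groups did not overlap. Hdac2, which removes acetyl groups from histones at many neuronal genes, read 8780.5, 8453 and 11524 with fluoxetine against 7980.2, 7941 and 7459 with vehicle. Every FLX value lay above every VEH value, with FLX replicate 3 the highest, on a probe set of the s_at type, which can match related transcripts. The log2 difference was 0.29 (SE 0.21), and the 3 pairs stood at 0.14, 0.090 and 0.63. Groups failed to overlap in either direction in 4.27% of the 12214 genes with FLX above in 2.61% and below in 1.65%, so 1 of 39 (2.56%) is near the background. Without the VEH replicate 3 array 12 members did not overlap, where 30.0% of genes did not. The second probe set of Hdac2 did overlap, with 5289, 4737 and 7693 with fluoxetine against 5543, 5032 and 3455 with vehicle. On that probe set the first 2 pairs were slightly lower in FLX, at -0.068 and -0.087, and replicate 3 alone was higher, at 1.15.

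Hdac8, the other class I gene with all values given here, read 57.8, 52.3 and 80.5 with fluoxetine against 54.7, 48.6 and 145 with vehicle. VEH replicate 3 was the highest array, and the difference of -0.22 (SE 0.46) turned to 0.093 without both replicate 3 arrays. Hdac1, which shares the NuRD, Sin3 and CoREST complexes with Hdac2, and Hdac3, the enzyme of the NCoR complex, had differences of -0.069 (SE 0.32) and 0.10 (SE 0.31). Hdac1 averaged 1820.2 ± 394 with fluoxetine and 1945 ± 602 with vehicle (SD, n = 3).

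Class IIa deacetylases carry little enzyme activity of their own and act as signal-dependent corepressors. All 4 had positive differences on their brightest probe sets, as did 58.0% of genes, but 0 of 4 passed. Hdac9, a repressor of MEF2 target genes, read 3708, 3209 and 5301 with fluoxetine against 2655, 2650.2 and 4009 with vehicle. In each pair the FLX array was the higher one, by 0.48, 0.28 and 0.40 on the log2 scale, while the groups overlapped because VEH replicate 3 exceeded FLX replicates 1 and 2. Its difference was 0.39 (SE 0.29, 95% interval -0.32 to 1.10). With the replicate block the interval was 0.018 to 0.76, and limma's adjusted p was 0.623. Hdac4 read 561, 623 and 899.6 with fluoxetine against 522, 593 and 728 with vehicle, and its 3 pairs stood at 0.10, 0.071 and 0.30. A second Hdac4 probe set had -0.029, so the sign depends on the probe set. Hdac5 and Hdac7 lay close to 0, at 0.014 (SE 0.23) and 0.055 (SE 0.24). The second Hdac7 probe set had -0.15 (SE 0.20) and was lower in FLX in all 3 pairs. The sign for Hdac5 turned when arrays were centred on their median.

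Of the class IIb and class IV genes, Hdac6, the cytoplasmic tubulin deacetylase, read 648, 559 and 1206 with fluoxetine against 501, 536 and 1092 with vehicle. Replicate 3 was about as high in both groups, and the pairs differed by 0.37, 0.062 and 0.14. Hdac11, the sole class IV member, read 6101, 5578 and 9626 with fluoxetine against 4519, 5388 and 9814 with vehicle. Its replicate 3 arrays were the high ones in both groups, where the oligodendrocyte marker sum was also highest. The part of those cells in the Hdac11 values was not tested. Hdac11 had a difference of 0.15 (SE 0.38) and Hdac10, a polyamine deacetylase, 0.038 (SE 0.28).

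Sirtuins, the NAD-dependent family, gave differences between -0.13 and 0.27, with 0 of 7 called and a mixed sign over the pairs for all 7. Sirt1, a nuclear deacetylase, read 779.8, 711 and 809.6 with fluoxetine against 806, 616 and 515 with vehicle. VEH replicate 3 was the lowest array and FLX replicate 3 the highest, and the difference of 0.27 (SE 0.23) was largest in the replicate 3 pair, at 0.65, against -0.047 and 0.21 in the other pairs. Sirt6, a chromatin-bound sirtuin, read 84.4, 67.7 and 112 with fluoxetine against 86.2, 57.5 and 168 with vehicle, again with replicate 3 of VEH as the farthest array. The mitochondrial sirtuins Sirt3, Sirt4 and Sirt5 had 0.045, 0.068 and 0.047. Sirt3 was the most even of the 7, from 2870.1 to 3632 over the 6 arrays. Sirt7, a nucleolar sirtuin, had -0.013 (SE 0.31). Sirt2, the tubulin deacetylase abundant in oligodendrocytes, averaged 4128 ± 1253 with fluoxetine and 4538 ± 1982 with vehicle (SD, n = 3). Its replicate 3 excess over replicates 1 and 2 was 0.71 (FLX) and 1.01 (VEH), beside the higher oligodendrocyte marker sum of those arrays.

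The SWI/SNF ATPases Smarca2 (BRM) and Smarca4 (BRG1), the motors of the complex, had differences of -0.030 (SE 0.22) and -0.10 (SE 0.49). Smarca4 read 2372, 3451 and 5547 with fluoxetine against 2543, 3202 and 6928 with vehicle, and its 2 replicate 3 arrays were above the other 4. The actin-related subunits Actl6a, the form of dividing cells, and Actl6b, the form of neurons, were both detected. Actl6a read 903, 1062 and 878 with fluoxetine against 1090.1, 972 and 701 with vehicle on an x_at probe set, a difference of 0.060 (SE 0.24). Actl6b read 241, 239 and 936 with fluoxetine against 185, 432 and 859 with vehicle. Replicates varied more here than in any other of the 39 genes, with an SE of 0.76 and an interval of -1.97 to 1.74. With the replicate block the interval was -0.70 to 0.46.

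Among core SWI/SNF subunits, 0 of 7 were called. Smarcb1 (SNF5), needed for complex integrity, had the lowest difference of the 39, at -0.38 (SE 0.54). On its brightest probe set, of the x_at type, it read 1476, 1429.8 and 2476 with fluoxetine against 1607, 1422 and 5069 with vehicle. VEH replicate 3 was the highest array, and the pairs stood at -0.12, 0.0076 and -1.03. A second probe set read 1628, 1663 and 2857 with fluoxetine against 1568, 1556 and 3253 with vehicle, with a difference of -0.012. It was the brighter one in every FLX array and in VEH replicate 2. The choice of the x_at probe set as brightest thus rests on VEH replicate 3, the array that also sets its difference. Smarcd2, one of the interchangeable BAF60 subunits, read 3642, 3963 and 1927 with fluoxetine against 5011, 4706 and 1931 with vehicle. On the brightest probe sets it was the 1 member lower in FLX in all 3 pairs, at -0.46, -0.25 and -0.0025. Its replicate 3 pair was nearly equal, and 13.6% of genes were lower in all 3. The other tested Smarcd2 probe sets were mixed, at 0.28 in pair 3 or 0.14 in pair 1. Dimmer probe sets of Hdac7, Smarca2, Smarca4 and Smarca5 were also lower in all 3 pairs. The scaffold subunits Smarcc1 and Smarcc2 had -0.12 (SE 0.37) and 0.19 (SE 0.40). Smarcd1, Smarcd3 and Smarce1 lay at 0.032, -0.043 and -0.013.

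Subunits that define the BAF, PBAF and ncBAF forms of the complex gave 0 of 6 calls. Arid2, a PBAF subunit, read 1512, 1665 and 1457 with fluoxetine against 1777, 1729 and 1442 with vehicle, within a narrow range. The PBAF bromodomain protein Brd7 read 1650.4, 1701 and 1734 with fluoxetine against 1804, 1694 and 1317 with vehicle, with VEH replicate 3 the lowest array and a difference of 0.091 (SE 0.20). Arid1b, a DNA-binding BAF subunit, read 446, 463 and 931 with fluoxetine against 457, 423 and 1454 with vehicle. Replicate 3 exceeded the other arrays in both groups, and more so in VEH. Its paralog Arid1a had 0.15 (SE 0.48), Pbrm1, the polybromo subunit of PBAF, 0.061 (SE 0.31) and Brd9, of ncBAF, 0.057 (SE 0.23).

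The ISWI and other SNF2-family genes, which the symbol rule brings in but which work outside SWI/SNF, had 2 of the 3 members that were higher in FLX by at least 0.2 in every pair. Smarca1 (SNF2L), an ISWI ATPase of neurons, read 1007, 895 and 1757 with fluoxetine against 850.1, 754 and 1129.6 with vehicle. Its pairs stood at 0.24, 0.25 and 0.64 and its difference at 0.38 (SE 0.33, 95% interval -0.42 to 1.17). Smarcal1, an annealing helicase that acts at stalled replication forks, read 1433, 1244 and 2801 with fluoxetine against 1058, 1054 and 1874 with vehicle. Its pairs stood at 0.44, 0.24 and 0.58, with a difference of 0.42 (SE 0.40, 95% interval -0.57 to 1.41). In both genes the groups overlapped, since VEH replicate 3 was above FLX replicates 1 and 2. The second Smarcal1 probe set had 0.25 (SE 0.28), with pairs at 0.0080, 0.43 and 0.32. Smarca5 (SNF2H), the other ISWI ATPase, had 0.022 (SE 0.19, turned by median centring), and Smarcad1 0.14 (SE 0.30).

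Over the 12214 genes the median difference was 0.0099, -0.0076 and 0.15 in pairs 1, 2 and 3, so pair 3 lay higher across genes. Over the members it was 0.048, 0.0060 and 0.12. By pair, 7 members were higher in FLX in all 3 pairs and 1 was lower, on the brightest probe sets. These 7 were Hdac2, Hdac4, Hdac6, Hdac9, Brd9, Smarca1 and Smarcal1 (17.9%, against 20.2% of the genes tested). A step of 0.2 or more in every pair was seen in Hdac9, Smarca1 and Smarcal1 (7.69%, against 2.95% of genes) and downward in 0 (against 2.52%). The step was set after these values were known, and with so few members nothing is drawn from the shares. With the replicate block the adjusted p of these 3 was 0.623 to 0.629 in limma, and none was called.

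**Figure D2:**
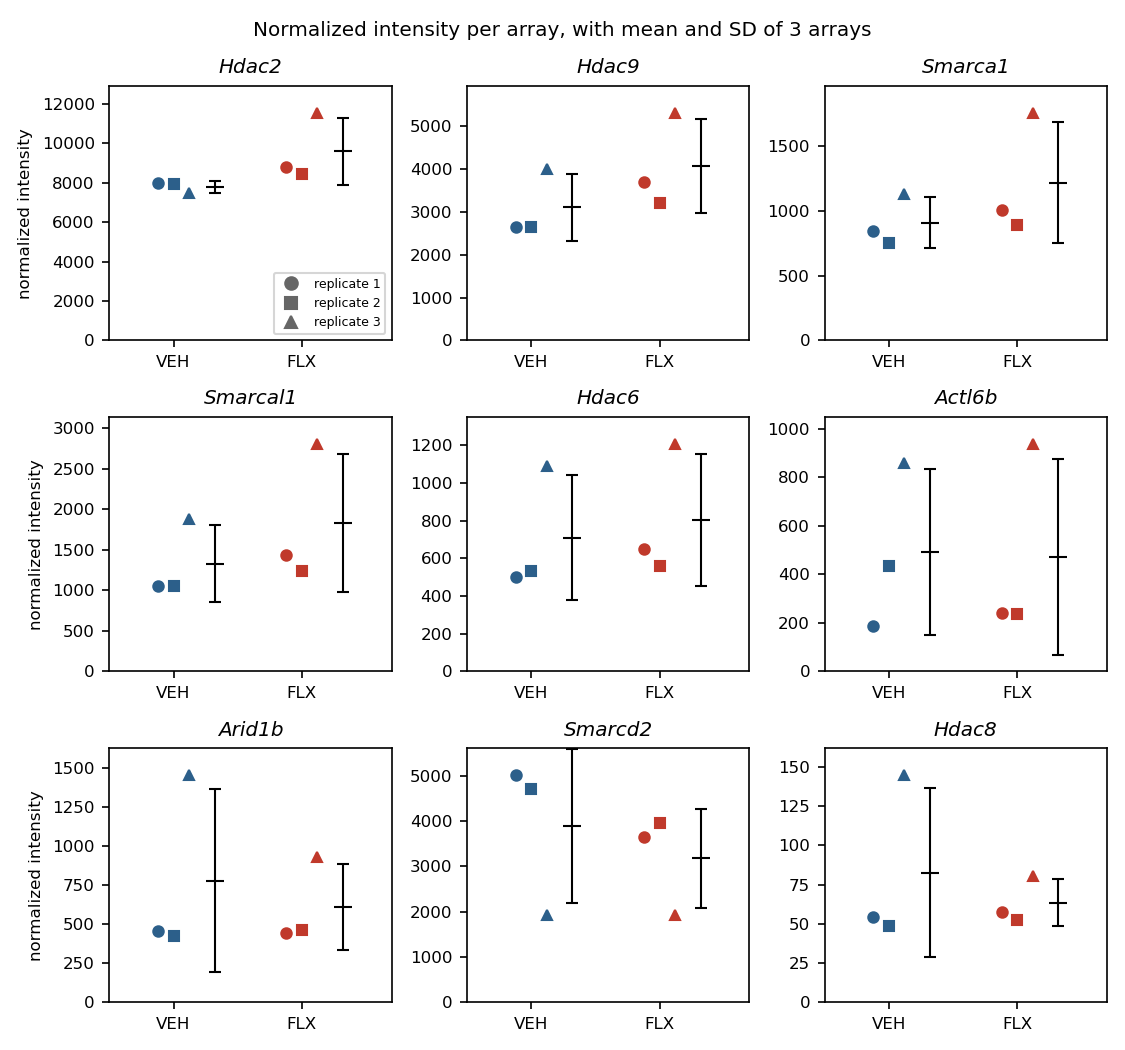
Normalized intensity (y axis, linear, from 0) in each array of the VEH and FLX groups for 9 members, with the mean and SD of 3 arrays beside the points. The groups separate in Hdac2 alone, and replicate 3 (triangles) is the highest array of its group in Hdac9, Smarca1, Smarcal1, Hdac6, Actl6b, Arid1b and Hdac8 and the lowest in Smarcd2.

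Promoter windows are shown for Hdac2, whose groups did not overlap, and for Hdac9, Smarca1 and Smarcal1, which were higher by the 0.2 step in every pair. They run from 250 bases before to 50 after the start of a RefSeq gene model on GRCm38.p6, 5′ to 3′ on the gene's strand. Capitals mark GC boxes (GGGCGG or CCGCCC, the Sp1 motif) and half-sites of the cyclic AMP response element (TGACG or CGTCA, bound by CREB).
Hdac2, chr10:36974294-36974593, plus strand: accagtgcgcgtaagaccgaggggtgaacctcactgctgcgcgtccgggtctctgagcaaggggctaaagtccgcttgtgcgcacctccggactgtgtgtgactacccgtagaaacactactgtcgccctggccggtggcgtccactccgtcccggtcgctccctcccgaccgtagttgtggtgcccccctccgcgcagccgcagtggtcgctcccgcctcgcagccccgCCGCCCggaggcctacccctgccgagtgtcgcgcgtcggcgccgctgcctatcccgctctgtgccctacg
Hdac9, chr12:34528840-34529139, minus strand: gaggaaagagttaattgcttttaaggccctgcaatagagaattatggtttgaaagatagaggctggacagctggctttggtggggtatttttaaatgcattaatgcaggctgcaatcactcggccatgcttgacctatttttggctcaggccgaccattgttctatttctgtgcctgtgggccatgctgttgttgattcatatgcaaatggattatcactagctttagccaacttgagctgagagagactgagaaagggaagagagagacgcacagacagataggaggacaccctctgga
Hdac9, chr12:34917046-34917345, minus strand: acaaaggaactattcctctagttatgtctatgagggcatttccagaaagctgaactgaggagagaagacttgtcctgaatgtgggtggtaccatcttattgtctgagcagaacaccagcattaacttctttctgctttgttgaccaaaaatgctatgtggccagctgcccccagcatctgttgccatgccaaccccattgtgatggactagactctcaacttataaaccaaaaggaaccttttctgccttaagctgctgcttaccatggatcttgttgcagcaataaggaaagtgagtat
Smarca1, chrX:47892564-47892863, minus strand: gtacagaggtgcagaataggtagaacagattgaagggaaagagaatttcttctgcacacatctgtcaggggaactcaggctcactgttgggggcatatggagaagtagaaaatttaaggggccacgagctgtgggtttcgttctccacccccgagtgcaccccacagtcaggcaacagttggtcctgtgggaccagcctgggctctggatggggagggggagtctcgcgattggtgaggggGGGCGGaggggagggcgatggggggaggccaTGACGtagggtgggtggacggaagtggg
Smarcal1, chr1:72583001-72583300, plus strand: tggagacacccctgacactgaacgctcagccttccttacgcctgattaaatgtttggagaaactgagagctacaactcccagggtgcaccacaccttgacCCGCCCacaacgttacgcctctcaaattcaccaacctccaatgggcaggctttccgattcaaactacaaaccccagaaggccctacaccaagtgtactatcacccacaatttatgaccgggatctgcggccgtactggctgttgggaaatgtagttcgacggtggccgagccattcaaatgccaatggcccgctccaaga
The Hdac2 window held 36 CpG dinucleotides, while the 2 Hdac9 windows held 3 and 0. The Smarca1 window held 9 and the Smarcal1 window 13. GC boxes on either strand were found once each in the Hdac2, Smarca1 and Smarcal1 windows and not in those of Hdac9. The half-site was found once, in Smarca1. RefSeq windows were matched by symbol for 34 of the 39 genes, 43 windows in all. A GC box was in 32 of the 43 (74.4%), against 35.7% of all 32851 windows in the table. The half-site was in 13 of the 43 (30.2%, against 20.8%). The full TGACGTCA element was in 0 of 43 (against 1.79%). The median CpG count was 23 in the 43 windows and 7 over all windows, and some windows of the same gene overlapped. The motif counts are matches of letters only.

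Most of the 39 genes were higher in replicate 3 than in replicates 1 and 2 in both groups, which is a description with no test. Replicate 3 minus the mean of replicates 1 and 2 had a median of 0.50 (FLX) and 0.42 (VEH), next to 0.055 and -0.10 over the 12214 genes. Of the 39, 27 were higher in replicate 3 in both groups (69.2%, against 40.5% of genes) and 7 were lower in both (17.9%, against 41.4%). A step of at least 1 upward in both groups was found in Hdac6, Actl6b and Arid1b (7.69%, against 5.11%), and downward in 0 of 39 (against 16.6%). Actl6b, the neuronal subunit, stood at 1.97 (FLX) and 1.60 (VEH), the largest step in FLX but below Smarcb1 (1.75) and Arid1b in VEH. Arid1b stood at 1.04 (FLX) and 1.73 (VEH) and Hdac6 at 1.00 (FLX) and 1.08 (VEH). Smarcd2 was the lowest in both groups, at -0.98 (FLX) and -1.33 (VEH). Hdac1 came next in FLX, at -0.56 (FLX) and -0.79 (VEH), while in VEH Smarce1 (-0.88) and Smarcad1 (-0.84) were below it. Actl6a, the paralog that neurons replace by Actl6b, stood at -0.16 (FLX) and -0.55 (VEH), the opposite side from Actl6b in both groups. In the same arrays the summed marker levels differed as given above, with single markers on both sides of 0 in several lists, and their part in these values was not tested.

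**Figure D3:**
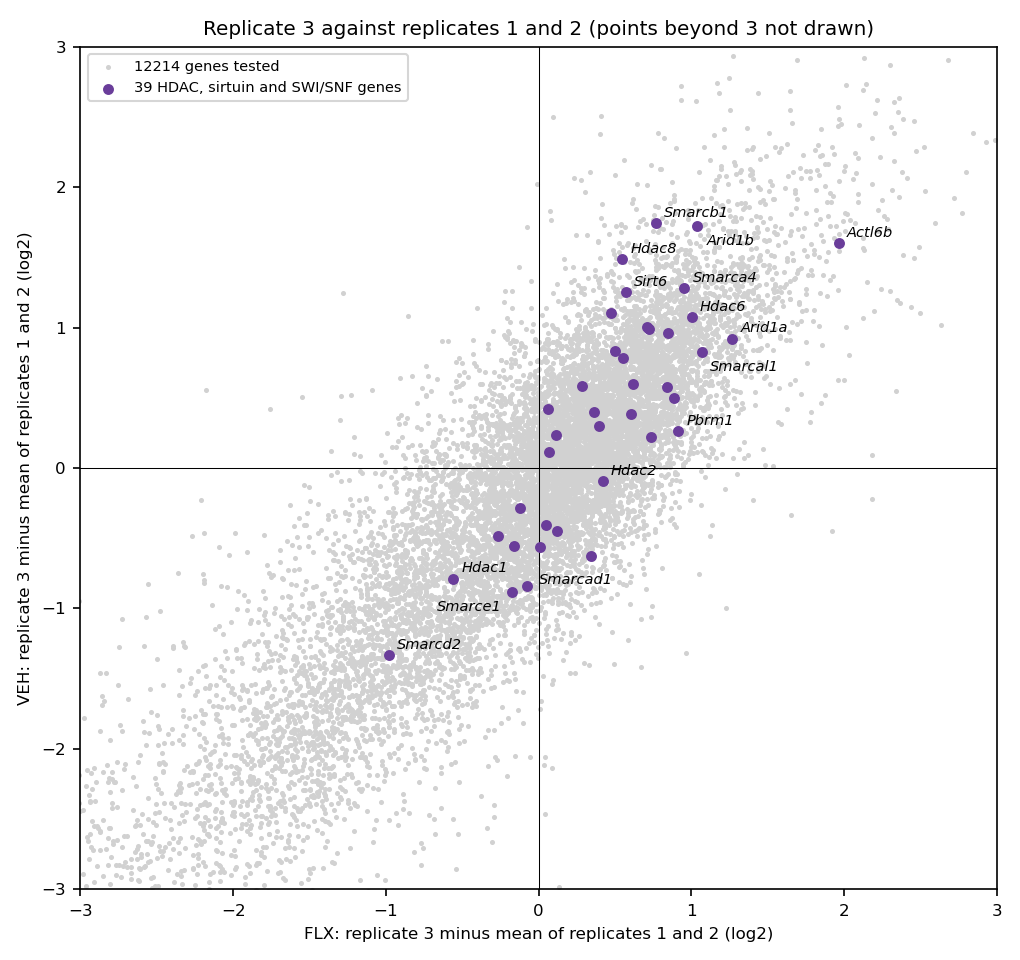
Log2 difference of replicate 3 from the mean of replicates 1 and 2 in FLX (x axis) and VEH (y axis) for the 39 genes (purple) and the 12214 genes tested (grey). Points beyond 3 in either direction on an axis are not drawn. Of the purple points 27 lie in the upper right quadrant, with Actl6b farthest out, and 7 in the lower left, with Smarcd2 lowest.

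Probe sets of one gene did not always move together. Of the 19 members with more than 1 tested probe set, 7 (Arid2, Brd7, Hdac4, Hdac7, Pbrm1, Smarca5 and Smarcc1) had differences of opposite sign between probe sets. The widest gap between probe sets was 0.37, for Smarcb1. In the replicate 3 comparison the gaps were wider. The brightest Smarca2 probe set stood at 0.40 (FLX) and 0.30 (VEH), and its dimmer one, which read 216, 242 and 698 with fluoxetine against 224, 245 and 875 with vehicle, at 1.61 (FLX) and 1.90 (VEH). The brightest Smarcd2 probe set was lower in replicate 3 in both groups, and the third stood at 0.035 (FLX) and 0.72 (VEH). The position of each probe set along its transcript was not analysed here.

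**Figure D4:**
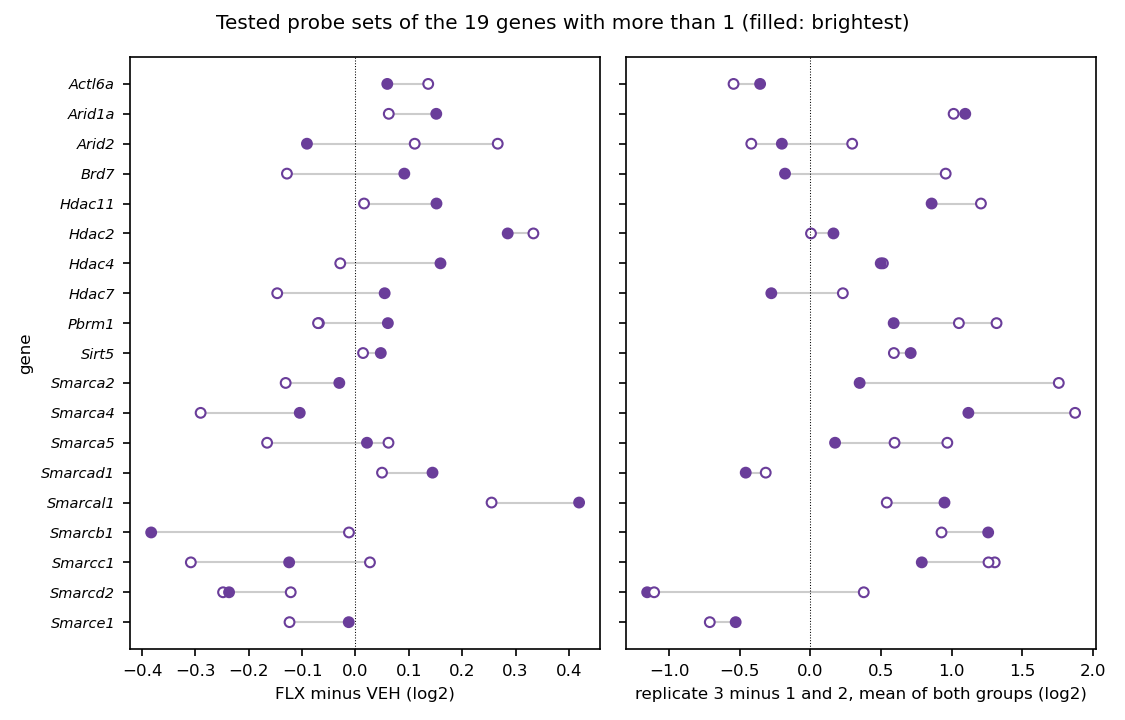
Left, FLX minus VEH (log2), and right, replicate 3 minus replicates 1 and 2 averaged over both groups (log2), for every tested probe set of the 19 members with more than 1. Filled circles mark the brightest probe set, and points of 1 gene lie on both sides of 0 in the left panel for 7 genes.

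Genes that work with these enzymes were taken from 6 lists, with 69 genes, of which 63 were tested. None of the 63 was called by limma, and 0 had an unadjusted p under 0.05. With the replicate block 2 of 63 did, Rcor3 and Bcl7c, where 7.6% of all genes tested did. A positive difference was found in 36 of 63, and in 58.0% of all genes tested. NuRD subunits had a median of -0.081 over 11 genes, with 3 positive. Mta3 had 0.22 (SE 0.22) and Mbd3, of the methyl-CpG-binding domain family, -0.17 (SE 0.21). CoREST, Sin3 and NCoR genes had a median of 0.060 over 12. Rcor3, a CoREST scaffold, read 503, 530.1 and 423 with fluoxetine against 849, 729 and 470.4 with vehicle, lower in FLX in all 3 pairs though the groups overlapped. Tbl1xr1, an NCoR exchange factor, had 0.22 (SE 0.22).

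Histone acetyltransferases, which oppose the deacetylases, had a median of -0.052 over 13 genes. Ncoa3, a nuclear receptor coactivator, read 664, 699 and 654 with fluoxetine against 785, 768 and 932 with vehicle, with every FLX value below every VEH value and a difference of -0.30 (SE 0.18). Ep300, the p300 acetyltransferase, had -0.22 (SE 0.22). Further BAF subunits had a median of 0.085 over 10. Among them Bcl7c read 821, 829.6 and 379.6 with fluoxetine against 1159, 1016 and 859 with vehicle, also without overlap, and Ss18l1 (CREST), the neuronal form of Ss18, had 0.33 (SE 0.24).

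MEF2 and 14-3-3 genes, the nuclear and cytoplasmic binding partners of class IIa deacetylases, had 8 of 9 positive differences and a median of 0.15. Over all genes tested 58.0% were positive, and with so few genes nothing is drawn from the share. Mef2c read 21806, 21785 and 26917 with fluoxetine against 17845, 20587 and 19919 with vehicle, and Ywhah read 28414, 26511 and 31329 with fluoxetine against 24349, 25150.0 and 24013 with vehicle. In both genes all FLX values lay above all VEH values, by 0.27 (SE 0.19) and 0.23 (SE 0.18). Ywhaq, named after its values were seen, was the third gene without overlap, at 0.10 (SE 0.17). Over the 6 lists, 5 of 63 genes did not overlap between groups (7.94%, against 4.27% of genes), 3 above and 2 below. NAD synthesis genes, which feed the sirtuins' cosubstrate, had a median of 0.018 over 8, with Nampt, the rate-limiting enzyme of NAD salvage, at 0.15 (SE 0.21) and Nmnat3 at 0.19 (SE 0.35).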

How the data were processed

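The deposited table holds 1 linear intensity per probe set and 1-colour Affymetrix array, made by the authors with GCRMA per the submitters' processing notes, which name no version or settings. Per the labels' protocols, 15 ng of immunoprecipitated RNA was amplified in 2 cycles and labelled with biotin. Of 45101 probe sets, 64 controls were left out. The platform annotation gave 1 symbol for 34945, several for 932 and none for 9160. Looked up by gene identifier in a newer table, 0 member symbols changed. The comparison of FLX and VEH used limma 3.58.1 (R 4.3.3) and log2 intensities, without a pseudocount, over the 22200 probe sets with a mean of 50 or more in at least 1 group, treatment as the only term, two-sided, with Benjamini-Hochberg adjustment at 0.05. An adjusted p in the report comes from this fit unless the replicate block is named with it. SE is limma's moderated standard error and n is 3 arrays per group. The labels call the replicates independent but do not give the animals behind them. The list of probe sets that the submitters advise was not used here.

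All 6 values were given for members whose groups did not overlap, for the 2 of each role list with the smallest unadjusted p, and for those with a replicate 3 step of at least 1 in both groups. Second probe sets are named outside this rule. Of each partner list the 2 with the smallest unadjusted p were named. The members and lists were chosen with earlier results of these data known. Deviations from the group means correlated at r = 0.704, 0.843 and 0.873 between arrays of equal replicate number, above the 0.1 set for pairing. VEH replicate 1 with FLX replicate 2 (0.759) and VEH replicate 2 with FLX replicate 1 (0.644) passed it too. Replicate 3 stood apart in both groups, which puts replicates 1 and 2 on the same side of their group mean. These values therefore cannot show whether replicates 1 and 2 are paired, and the pairs and the block follow the replicate number alone. No label ties a number to a day or batch. Alternatives were another filter, a pseudocount, centring, the replicate block, arrays left out and other probe sets. The fit was tested on simulated data with known changes. For the design with treatment only, these data held no replicate effect. They do not show how that fit behaves with the replicate 3 shift seen here. Figures were drawn with matplotlib 3.10.9.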

Additional observations from a re-analysis of the deposited data

How the results depend on the processing

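In limma's fit 0 members passed the threshold under each of the 15 alternatives, and 0 probe sets under the 12 that refit the whole table, including the fit with the replicate block, where the smallest adjusted p of a member was 0.623, so the block changed no call. The brightest probe set not of the x_at or s_at type was an alternative chosen after seeing the data. With 1 array left out at a time the median difference over members ran from -0.064 to 0.23, the former without FLX replicate 3 and the latter without VEH replicate 3. The matching medians over all genes are not given here. Members without overlap numbered 1 to 12, the most without VEH replicate 3 (30.0% of genes then did not overlap). Without both replicate 3 arrays there were 14 (38.6% of genes), as groups of 2 separate more often. With the mean of a gene's probe sets, the second probe set or no x_at or s_at probe set there were 0, 0 and 0. The count in 1 direction in all 3 pairs was 7 to 9 in the alternatives that kept 3 pairs. No count over 3 pairs was made with arrays left out, and Hdac3 has no probe set beside its s_at one. The sign of the difference was kept under every alternative in 5 members, Hdac2, Hdac9, Sirt1, Smarca1 and Smarcal1, and turned under at least 1 in 34. The matching share over all genes is not given here, so nothing is drawn from these counts. None of the members' differences was past the threshold, and the cause of the sign changes was not tested. Centring each array on its median gave Hdac5 -0.0090, Smarca5 -0.0018. Without both replicate 3 arrays the turned values were Hdac8 0.093, Hdac5 -0.058, Hdac7 -0.14, Hdac10 -0.14, Sirt2 0.0056, Sirt4 -0.26, Sirt5 -0.040, Sirt6 0.10, Sirt7 0.10, Actl6a -0.072, Smarca4 0.0037, Smarcc1 0.086, Smarcd3 0.076, Arid1b 0.047, Brd7 -0.061, Pbrm1 -0.15, Smarcad1 -0.11. The mean of probe sets gave Hdac7 -0.046, Arid2 0.10, Brd7 -0.018, Pbrm1 -0.026, Smarca5 -0.027, and the second probe set Hdac4 -0.029, Hdac7 -0.15, Smarcc1 0.027, Arid2 0.11, Brd7 -0.13, Pbrm1 -0.069. With 1 array left out in turn, the ranges that crossed 0 were Hdac1 -0.33 to 0.14, Hdac3 -0.087 to 0.36, Hdac8 -0.51 to 0.28, Hdac4 -0.043 to 0.30, Hdac5 -0.15 to 0.11, Hdac7 -0.13 to 0.21, Hdac10 -0.21 to 0.25, Hdac11 -0.089 to 0.48, Hdac6 -0.14 to 0.55, Sirt2 -0.33 to 0.24, Sirt3 -0.028 to 0.14, Sirt4 -0.14 to 0.22, Sirt5 -0.23 to 0.24, Sirt6 -0.48 to 0.29, Sirt7 -0.18 to 0.27, Actl6a -0.13 to 0.19, Actl6b -0.77 to 0.42, Smarca2 -0.16 to 0.069, Smarca4 -0.42 to 0.32, Smarcb1 -0.72 to 0.20, Smarcc1 -0.39 to 0.24, Smarcc2 -0.088 to 0.52, Smarcd1 -0.11 to 0.23, Smarcd2 -0.68 to 0.089, Smarcd3 -0.15 to 0.10, Smarce1 -0.31 to 0.16, Arid1a -0.27 to 0.46, Arid1b -0.53 to 0.39, Brd7 -0.045 to 0.18, Brd9 -0.064 to 0.19, Pbrm1 -0.24 to 0.27, Smarca5 -0.022 to 0.10, Smarcad1 -0.14 to 0.37. The 3 arrays of a group limit the precision, and 37 of 39 members read at least 50 in every array.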
